A study of Mus musculus with 24 samples.

Results

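The genes described here make cholesterol and control how much of it a cell makes: 30 members, of which 19 are enzymes of the synthesis pathway, 5 are the sterol-sensing SREBP machinery, 4 move or esterify cholesterol and 2 are the LXR oxysterol receptors. They were chosen by symbol in the annotation of the Affymetrix MOE430 mouse arrays, and 27 of the 30 had a probe set among 18193 annotated genes. Acat2, Soat1 and Nr1h2 were not analysed here on the arrays and enter the promoter search alone. All 27 passed the filter on low signals, as 12911 genes did. They hold 60 probe sets, 50 on the 430A and 10 on the 430B array, of which 49 passed the filter and 11 did not.

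Total RNA came from whole colon of BALB/c mice, an inbred strain, aged 6 to 8 weeks. There were 4 groups of 3 samples: 2% curcumin diet with a TNBS enema (trinitrobenzene sulfonic acid, which induces colitis), standard diet with TNBS enema, curcumin diet with control enema, and standard diet with control enema. Feeding started 2 days ahead of the enema and tissue was taken on day 7. RNA from 3 mice was pooled, and the labels do not say whether samples of a group are separate pools, so every p-value here measures the spread between these samples, which may be technical. Values are signal intensities, and differences are on the scale of log2(signal + 16), curcumin minus standard or TNBS minus control. In whole colon, fewer cells of a type and less RNA per cell cannot be told apart.

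Cells build cholesterol from acetyl-CoA through mevalonate, isoprenoids, squalene and lanosterol. When membrane sterol is low, SCAP escorts the transcription factor SREBP-2 to the Golgi, where it is cut and released to the nucleus, and it then turns on most genes of the pathway. INSIG proteins hold SCAP in the endoplasmic reticulum when sterol is plentiful, and Insig1 is itself a target of SREBP. Intestinal epithelium both absorbs and makes sterol.

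Promoters of this pathway are known for sterol response elements next to boxes for the cofactor NF-Y. Windows of 300 bases, 250 before and 50 after the annotated start, were taken from RefSeq (GRCm38.p6) for the 25 members that had an entry. Fdps, Fdft1, Sqle, Stard4 and Npc1 had none. The NF-Y core CCAAT, searched on both strands, was in at least 1 window of 15 of 16 enzyme genes (93.8%), against 41.1% of 27025 genes. The Sp1 core GGGCGG was in 14 of 16 (87.5%), against 38.2% of all genes. The sterol response element core CACNCCAC was in 2 of 16 enzyme genes, Acat2 and Hmgcs1, and in Insig1, against 7.12% of all genes. These searches did not use the array values; each motif was counted on its own, and matches of different motifs may share edge bases. A match describes the letters in the window and is not a measured binding site. The sequences are of the 5 enzyme genes with an entry, and of Insig1, that had an unadjusted limma p under 0.05 between diets. Each is printed on its gene's strand from 5′ to 3′, with the NF-Y core and the sterol response element core in capitals (on either strand). Hmgcs1 lies at chr13:119690101-119690400, plus strand. Cyp51 lies at chr5:4104648-4104947, minus strand, Msmo1 at chr8:64733529-64733828, minus strand and Nsdhl at chrX:72918271-72918570, plus strand. Sc5d lies at chr9:42264251-42264550, minus strand, and Insig1 at chr5:28071162-28071461, plus strand.
Hmgcs1: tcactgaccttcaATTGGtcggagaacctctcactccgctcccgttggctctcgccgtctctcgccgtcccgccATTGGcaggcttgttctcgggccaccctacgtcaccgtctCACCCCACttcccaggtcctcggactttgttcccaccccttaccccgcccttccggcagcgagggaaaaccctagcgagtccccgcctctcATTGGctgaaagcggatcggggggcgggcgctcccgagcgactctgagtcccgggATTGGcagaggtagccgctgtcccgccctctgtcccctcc
Cyp51: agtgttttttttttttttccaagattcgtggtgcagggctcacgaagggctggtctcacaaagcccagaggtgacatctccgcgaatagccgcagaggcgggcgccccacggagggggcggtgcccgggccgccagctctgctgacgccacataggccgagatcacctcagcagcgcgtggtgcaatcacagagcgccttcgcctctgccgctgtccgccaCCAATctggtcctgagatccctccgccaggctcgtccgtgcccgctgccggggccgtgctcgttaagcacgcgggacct
Msmo1: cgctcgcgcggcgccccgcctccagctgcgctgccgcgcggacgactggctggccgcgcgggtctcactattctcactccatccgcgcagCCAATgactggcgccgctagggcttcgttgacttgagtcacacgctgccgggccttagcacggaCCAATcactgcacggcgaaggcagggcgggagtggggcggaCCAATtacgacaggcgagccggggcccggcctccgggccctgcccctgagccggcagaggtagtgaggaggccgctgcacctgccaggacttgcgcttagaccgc
Nsdhl: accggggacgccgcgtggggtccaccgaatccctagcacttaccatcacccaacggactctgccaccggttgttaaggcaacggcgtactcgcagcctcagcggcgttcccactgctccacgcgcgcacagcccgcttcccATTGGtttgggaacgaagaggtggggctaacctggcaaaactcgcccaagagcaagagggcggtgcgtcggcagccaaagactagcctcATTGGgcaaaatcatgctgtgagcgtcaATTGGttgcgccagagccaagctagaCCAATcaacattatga
Sc5d: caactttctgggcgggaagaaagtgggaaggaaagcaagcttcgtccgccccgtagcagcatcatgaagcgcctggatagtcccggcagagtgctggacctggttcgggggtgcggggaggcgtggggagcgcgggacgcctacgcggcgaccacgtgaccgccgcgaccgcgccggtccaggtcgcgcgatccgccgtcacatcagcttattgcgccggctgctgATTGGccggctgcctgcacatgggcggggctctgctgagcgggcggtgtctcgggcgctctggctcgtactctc
Insig1: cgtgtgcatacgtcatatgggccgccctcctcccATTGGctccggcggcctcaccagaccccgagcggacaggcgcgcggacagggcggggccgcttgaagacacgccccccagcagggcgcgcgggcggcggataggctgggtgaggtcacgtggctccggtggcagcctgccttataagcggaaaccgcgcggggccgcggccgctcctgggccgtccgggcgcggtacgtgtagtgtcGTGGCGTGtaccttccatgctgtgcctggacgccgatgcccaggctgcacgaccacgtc

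In the Hmgcs1 window the 4 NF-Y cores lie at -235, -174, -43 and 12 bases from the start, with the sterol response element core at -132. Cyp51 and Sc5d have 1 NF-Y core each, at -27 and -22. Msmo1 has 3 and Nsdhl has 4. Insig1 has its sterol response element core at -6 and an NF-Y core at -214. The windows of Scap, which also had an unadjusted p under 0.05 between diets, hold neither core.

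**Figure D1:**
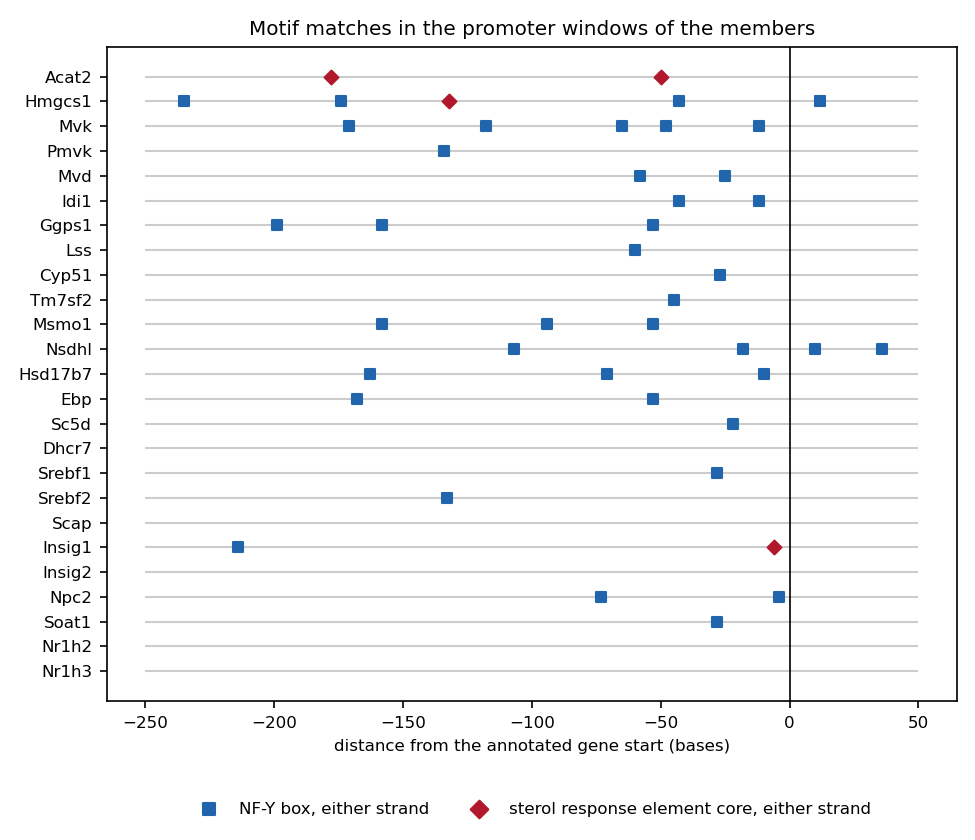
Position of the NF-Y core (blue squares) and the sterol response element core (red diamonds) on either strand in the first listed promoter window of 25 member genes, with distance from the annotated start in bases on the x axis. Squares stand on most of the enzyme rows, and diamonds on Acat2, Hmgcs1 and Insig1.

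Curcumin-fed mice had slightly higher signals of the synthesis enzymes than mice on the standard diet. Averaged over both enemas, all 18 measured enzymes had a diet difference above 0, from 0.03 for Dhcr7 to 0.53 for Hmgcs1, with a median of 0.22; over all genes, 48.5% were above 0 and the median was -0.01. Of the 27 members, 9 had an unadjusted limma p under 0.05 and a higher signal on curcumin (background 2.96% of genes), and 0 had a lower signal with such a p (background 3.82%). The 9 are the enzymes Hmgcs1, Fdft1, Cyp51, Msmo1, Nsdhl and Sc5d, the regulators Scap and Insig1, and the carrier Stard4. After Benjamini-Hochberg adjustment over all tested probe sets of an array type, 0 members passed 0.05 in limma (background 0%), and the lowest adjusted p was 0.309, for Insig1. No enzyme can therefore be called changed on its own. The members and the direction were known from earlier results of these data when the genes were listed, so the counts describe the list and do not test it.

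Enzyme level was also summarised per 430A array, as the median over the 18 enzymes of the deviation from each gene's mean. It was 0.16, 0.10 and 0.09 in the curcumin-TNBS samples, against -0.07, -0.16 and -0.10 in the standard-TNBS samples. It was 0.20, 0.08 and 0.06 in the curcumin-control samples, against -0.16, -0.04 and -0.16 in the standard-control samples. All 6 curcumin arrays were above 0 and all 6 standard arrays below it, with no overlap under either enema.

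**Figure D2:**
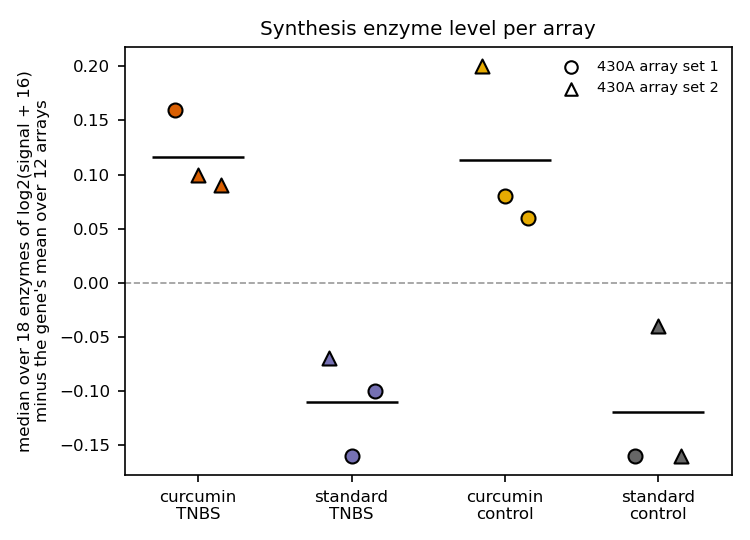
Median over 18 synthesis enzymes of log2(signal + 16) minus the gene's mean over 12 arrays (y axis), for each 430A array in the 4 groups; bars are group means, and circles and triangles mark the 2 sets of 430A arrays described in the text. The curcumin arrays lie between 0.06 and 0.20, above the standard arrays, which lie between -0.16 and -0.04.

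The 430A arrays fall into 2 sets of 6 along their first principal component, which holds 32.0% of the variance. Each set holds 3 curcumin and 3 standard arrays, and the labels name no batch for the sets. Within a set, diet and enema are not balanced. In set 1 most curcumin arrays had the control enema and most standard arrays TNBS, and in set 2 the reverse. Differences within a set are plain means, so those for diet mix in enema and those for TNBS mix in diet. Within the sets the enzyme medians of the diet difference were 0.19 and 0.22, against -0.03 and 0.03 over all genes, and 15 of 18 enzymes were above 0 within both sets (background 27.9%). On the 430B arrays, curcumin-TNBS samples 2 and 3 stood apart from the other 10. When the fit held a term for the array set, and left those 2 arrays out on 430B, 10 members had an unadjusted p under 0.05 (background 3.39%), the enzyme median was again 0.22, and the lowest adjusted p of a member was 0.198 in limma. This leaves curcumin-TNBS with 1 array on 430B, assumed to vary like the other groups.

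At the start of the pathway, Hmgcs1, the synthase that makes HMG-CoA, had signals of 5822.6, 3334.0 and 3117.3 in curcumin-TNBS samples, against 2790.3, 3088.9 and 2429.8 in standard-TNBS samples. With the control enema it had 4063.8, 5287.2 and 3807.9 on curcumin, against 3613.6, 3034.0 and 2375.0 on the standard diet. Every curcumin sample exceeded the standard samples of the same enema, by a narrow margin in curcumin-TNBS sample 3. The difference was 0.53 ± 0.16 (SE) over both enemas, with an unadjusted limma p of 0.00678 and an adjusted p of 1. It was 0.70 and 0.36 within the array sets. The gene's 3 further tested probe sets had diet differences in the same direction, of 0.41, 0.42 and 0.43, the last 2 with an unadjusted p of 0.00295 and 0.00312 in limma.

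The next 3 enzymes turn mevalonate into isopentenyl diphosphate, and their diet differences were small against their error: Mvk, mevalonate kinase, 0.22 ± 0.42, Pmvk 0.16 ± 0.19 and Mvd 0.10 ± 0.11 (SE). Mvk followed the array set, not the diet, with signals from 84.1 to 239.8 in set 1 and from 298.7 to 572.3 in set 2. Mvd signals with the control enema were 493.3, 393.7 and 389.6 on curcumin and 342.5, 365.9 and 369.3 on the standard diet, without overlap, whereas with TNBS they were 375.4, 419.6 and 483.7 on curcumin and 482.0, 363.0 and 453.7 on the standard diet. Idi1, the isomerase, differed by 0.24 ± 0.15 and Fdps, farnesyl diphosphate synthase, by 0.27 ± 0.16 (SE). Fdps had 1584.3, 1561.4 and 1804.3 in curcumin-control samples, all above the 1501.1, 1263.8 and 1016.3 of standard-control samples, but its TNBS groups overlapped. Ggps1, which makes the geranylgeranyl diphosphate used outside the sterol branch, differed by 0.04 ± 0.14 (SE).

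In the steps to squalene and lanosterol, Fdft1, squalene synthase and the first committed enzyme of the sterol branch, had 1151.3, 1140.2 and 1157.0 in curcumin-TNBS samples, against 936.1, 855.4 and 1044.6 in standard-TNBS samples. It had 1050.3, 1060.6 and 1062.5 in curcumin-control samples, against 870.8, 976.5 and 740.9 in standard-control samples. All 6 curcumin samples were above all 6 standard samples, which only 0.0775% of genes showed in this direction. The difference was 0.29 ± 0.09 (SE), a fold of 1.223, with a limma p of 0.00654 before and 1 after adjustment. The other tested Fdft1 probe sets gave 0.54 ± 0.15 and 0.06 ± 0.20 (SE).

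Sqle, the squalene epoxidase that is rate-limiting in the sterol branch, differed by 0.26 ± 0.17 (SE), and its diet groups overlapped under both enemas. Standard-control sample 1 had the highest Sqle signal of all, 1738.4, and the difference was 0.43 without it. Lss, which closes the ring to lanosterol, had 546.9, 619.8 and 414.2 in curcumin-TNBS samples, against 421.7, 311.2 and 366.3 in standard-TNBS samples. That difference was 0.50 ± 0.20 (SE) with an unadjusted limma p of 0.0282, and the samples overlapped. With the control enema it was 0.09 ± 0.20 (SE).

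Between lanosterol and cholesterol, Cyp51, the lanosterol demethylase, had 943.9, 777.1 and 587.9 in curcumin-TNBS samples, against 616.4, 682.2 and 686.6 in standard-TNBS samples, which overlapped. It had 875.8, 762.5 and 759.7 in curcumin-control samples, against 602.5, 630.7 and 549.5 in standard-control samples, which did not. Over both enemas Cyp51 differed by 0.30 ± 0.11 (SE), at an unadjusted limma p of 0.0201. Its other tested probe set, also on 430A, gave 0.14 ± 0.20 (SE).

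Msmo1, the methylsterol monooxygenase, had 2422.7, 1667.8 and 1654.5 in curcumin-TNBS samples, against 1576.1, 1107.8 and 1055.6 in standard-TNBS samples. It had 1802.0, 1706.3 and 1448.8 in curcumin-control samples, against 1246.1, 1306.5 and 1322.0 in standard-control samples. The groups did not overlap under either enema, and the difference was 0.48 ± 0.13 (SE), with a limma p of 0.00259 before and 0.981 after adjustment. Nsdhl, the sterol dehydrogenase that acts beside Msmo1, had 1472.0, 1401.4 and 1516.0 in curcumin-TNBS samples, against 1380.9, 1324.2 and 1338.9 in standard-TNBS samples. It had 1375.7, 1425.8 and 1516.8 in curcumin-control samples, against 1269.0, 988.7 and 1201.6 in standard-control samples. Its difference was 0.22 ± 0.08 (SE) over both enemas, with an unadjusted limma p of 0.0198, and the curcumin samples exceeded the standard samples of their enema.

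Sc5d, the lathosterol desaturase, had 638.6, 795.5 and 657.0 in curcumin-TNBS samples, against 567.6, 513.4 and 515.8 in standard-TNBS samples. With the control enema the samples overlapped, at 690.2, 589.7 and 622.9 on curcumin and 532.4, 647.2 and 660.2 on the standard diet. The mean difference was 0.21 ± 0.10 (SE), at an unadjusted limma p of 0.0491, and 0.05 ± 0.13 (SE) on its 430B probe set. The other late enzymes differed by little relative to their SE: Tm7sf2 by 0.08 ± 0.09, Hsd17b7 by 0.04 ± 0.09, Ebp by 0.13 ± 0.11 and Dhcr7, the last step, by 0.03 ± 0.13 (SE). Counting every tested probe set of an enzyme on 430A, 29 of 30 were above 0 for diet, against 49.6% of all 430A probe sets, and the exception was 1 of the probe sets of Hsd17b7.

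**Figure D3:**
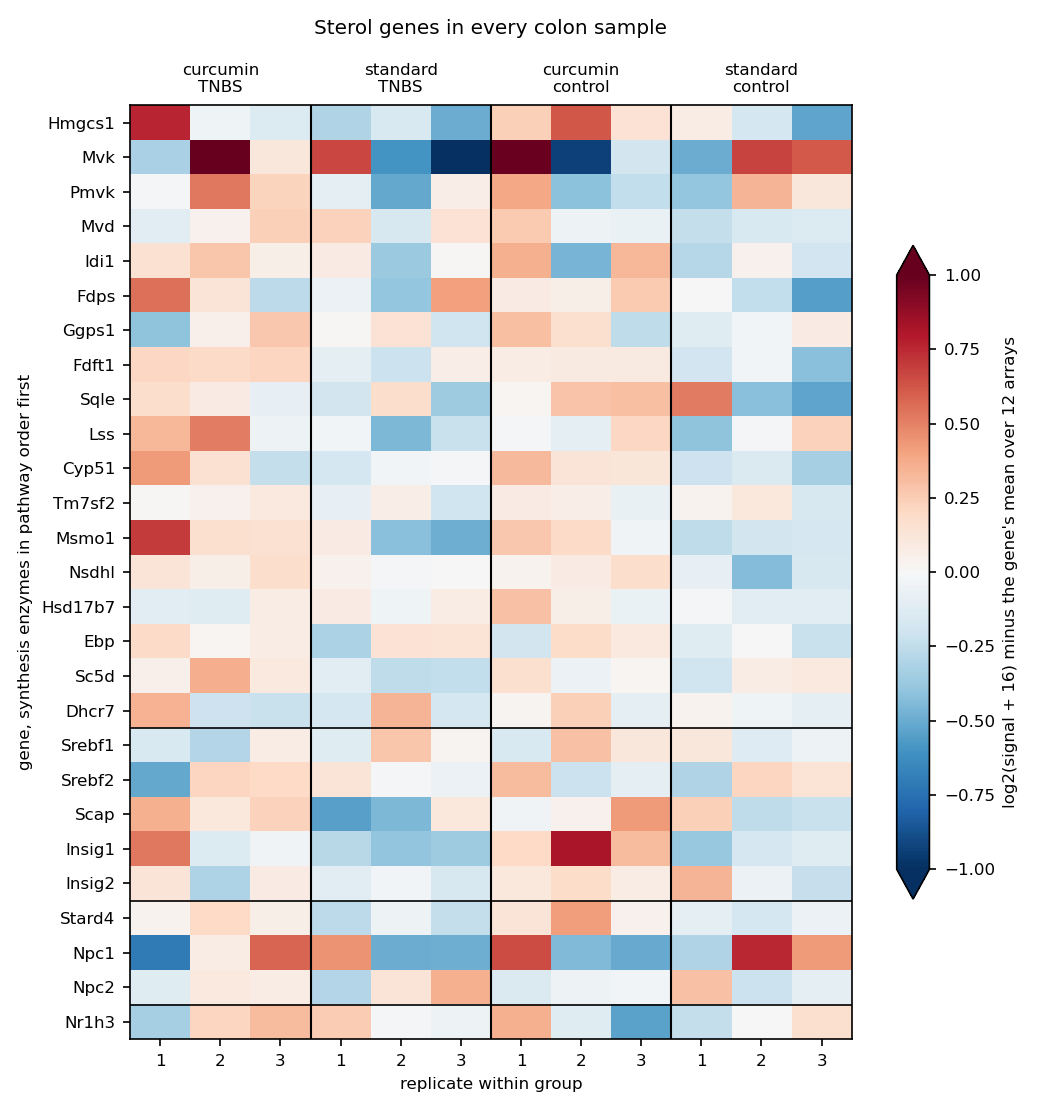
Log2(signal + 16) of 27 member genes in every sample, relative to the gene's mean over 12 arrays (colour, clipped at -1 and 1), with enzymes in pathway order above the regulators, carriers and Nr1h3. Hmgcs1, Fdft1, Msmo1 and Stard4 are mostly red in the curcumin columns and blue in the standard columns, while Mvk and Npc1 vary between replicates of every group.

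Among the sterol-sensing genes, Insig1, the retention protein and SREBP target, was measured on 430B only. It had 3167.4, 1991.2 and 2130.3 in curcumin-TNBS samples, against 1800.2, 1664.7 and 1703.7 in standard-TNBS samples. It had 2520.3, 3875.5 and 2726.3 in curcumin-control samples, against 1676.5, 1950.8 and 2012.4 in standard-control samples. The curcumin samples were higher under each enema without overlap, and the difference over both was 0.56 ± 0.14 (SE), a fold of 1.479, with a limma p of 0.000861 before and 0.309 after adjustment. Curcumin-TNBS samples 2 and 3 are the arrays that stood apart on 430B, and without them the difference was 0.77. Insig1 alone crossed an adjusted p of 0.05 when curcumin-TNBS sample 1 was left out (0.46, adjusted p of 0.0395 in limma) and with array quality weights (0.58, adjusted p of 0.0201). Those fits called 1.89% and 1.71% of all genes. The first of them leaves curcumin-TNBS with only the 2 arrays that stood apart on 430B.

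Scap, the escort of SREBP, had 832.4, 700.4 and 764.4 in curcumin-TNBS samples, against 440.4, 470.0 and 699.2 in standard-TNBS samples. With the control enema it had 631.4, 667.5 and 874.9 on curcumin, against 769.0, 540.4 and 552.2 on the standard diet, with overlap. The difference was 0.37 ± 0.14 (SE), at an unadjusted limma p of 0.0213, whereas its 430B probe set gave -0.03 ± 0.15 (SE). The transcripts of the factors themselves showed small differences relative to error: Srebf2, which encodes SREBP-2, by -0.04 ± 0.15, Srebf1 by -0.04 ± 0.11, and Insig2 by 0.09 ± 0.11 (SE). The arrays do not measure SREBP cleavage or protein.

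Among the transport genes, Stard4, a cytosolic sterol carrier, had 1894.3, 2120.0 and 1929.5 in curcumin-TNBS samples, against 1540.1, 1786.7 and 1561.6 in standard-TNBS samples. It had 2018.0, 2469.2 and 1904.9 in curcumin-control samples, against 1733.2, 1637.2 and 1769.9 in standard-control samples. Like Fdft1, Stard4 was higher in all 6 curcumin samples than in any standard sample, by 0.29 ± 0.09 (SE), with a limma p of 0.00511 before and 1 after adjustment. Its second 430A probe set gave 0.31 ± 0.14 and its 430B probe set 0.09 ± 0.11 (SE). Npc1 and Npc2, which export cholesterol from lysosomes, differed by -0.11 ± 0.30 and -0.06 ± 0.12 (SE), and Npc1 signals ran from 141.9 to 193.0 in array set 1 and from 255.8 to 419.5 in set 2. Nr1h3, the receptor LXR alpha, differed by -0.04 ± 0.17 (SE).

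**Figure D4:**
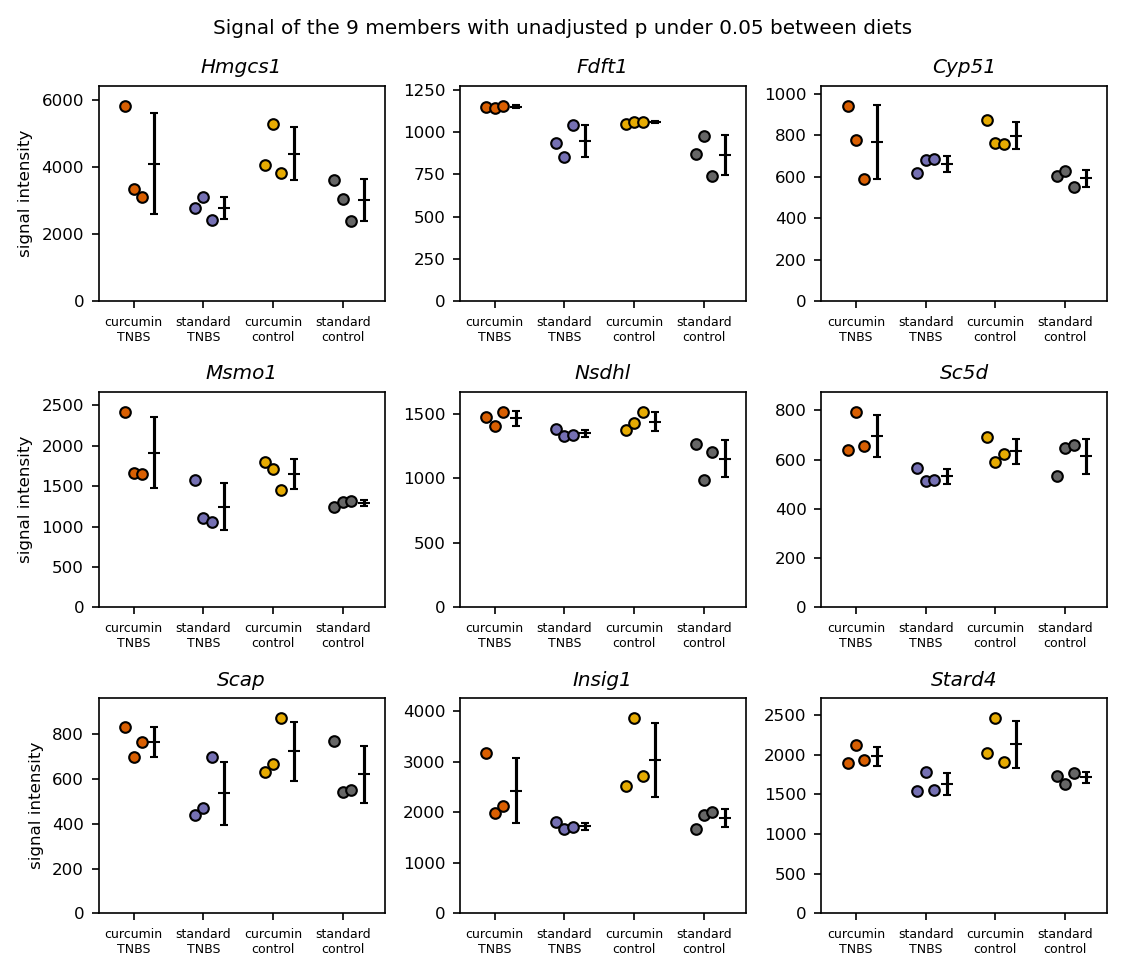
Signal intensity (y axis, from 0) of the 9 members with an unadjusted p under 0.05 between diets, with 1 point per sample in each of the 4 groups and the mean ± SD beside them. Fdft1 and Stard4 have every curcumin point above every standard point; Cyp51, Sc5d and Scap overlap under 1 enema.

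Taken by enema, the diet difference was of like size. With TNBS, 14 of 18 enzymes were above 0 (background 49.6%) with a median of 0.18, and 8 members had an unadjusted limma p under 0.05 and a higher signal (background 6.75%), with 0 lower (background 8.74%). The 8 were Hmgcs1, Fdft1, Lss, Msmo1, Sc5d, Scap, Insig1 and Stard4. The samples did not overlap for 8 members on the higher side (background 9.46%) and for 0 on the lower side (background 10.3%), and 0 members passed adjustment (background 0.666%). With the control enema, 16 of 18 enzymes were above 0 (background 49.9%) with a median of 0.20. Here 6 members had an unadjusted limma p under 0.05 and a higher signal (background 1.70%), namely Hmgcs1, Fdft1, Cyp51, Nsdhl, Insig1 and Stard4, and 0 a lower one (background 1.88%). The samples did not overlap for 9 on the higher side (background 3.79%) and for 0 on the lower side (background 4.05%). Of the 18 enzymes, 12 were above 0 under both enemas (background 19.6%). The difference between the diet effects was tested as an interaction: 0 members had an unadjusted limma p under 0.05 (background 5.80% higher and 7.27% lower), 0 passed adjustment (background 0.0232%), and the lowest adjusted p was 0.604. With the array set in the fit, 1 member, Scap, had such a p (0.52 ± 0.23 SE, unadjusted p of 0.0437, adjusted p of 0.33 in limma). Of the other probe sets, 1 of Hsd17b7 and 1 of Sc5d, both on 430B, had an unadjusted limma p under 0.05 for the interaction. For Hsd17b7 the diet difference was -0.63 ± 0.28 with the control enema and 0.57 ± 0.28 (SE) with TNBS, both without overlap. For Sc5d it was 0.40 ± 0.18 with the control enema and -0.31 ± 0.18 (SE) with TNBS. The 430A probe set that represents Sc5d gave 0.05 ± 0.14 and 0.37 ± 0.14 (SE), so the Sc5d probe sets differ in sign under TNBS. Leaving out the 2 arrays that stood apart on 430B leaves 1 array in curcumin-TNBS. The 430B differences under TNBS were then 0.49 for Hsd17b7 and -0.13 for Sc5d. The interactions were 1.12 and -0.53, against 1.2 and -0.71 with all arrays. With array quality weights the TNBS comparison called 5 members, Mvk, Lss, Msmo1, Stard4 and Sc5d, in a fit that called 15.9% of all genes.

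TNBS itself went with little difference in the members, each taken by the probe set that represents it. Of the 27, 0 had an unadjusted limma p under 0.05 on the standard diet (background 3.94% higher and 4.45% lower), on curcumin (background 4.43% and 6.40%) or over both diets (background 2.90% and 3.73%). With the array set in the fit, 1 member, Mvd, had such a p on the standard diet (0.33 ± 0.13 SE, unadjusted p of 0.0269, adjusted p of 0.274 in limma). After adjustment 0 members passed on the standard diet (background 0.0155%), on curcumin (background 0.124%) or over both (background 0%). The enzyme medians were 0.02 on each diet and 0.03 over both. Enzymes above 0 numbered 11 of 18 on the standard diet (background 48.1%), 12 on curcumin (background 47.8%) and 10 over both diets (background 46.2%), of which 5 were above 0 within both array sets (background 24.4%). On the standard diet, Nsdhl was the 1 member whose samples did not overlap (background 7.67% higher and 7.30% lower), at 1380.9, 1324.2 and 1338.9 in standard-TNBS samples, against 1269.0, 988.7 and 1201.6 in standard-control samples. On curcumin, Fdft1 was the 1 such member (background 5.62% higher and 6.41% lower), at 1151.3, 1140.2 and 1157.0 in curcumin-TNBS samples, against 1050.3, 1060.6 and 1062.5 in curcumin-control samples. The other tested Fdft1 probe sets had the opposite sign there, at -0.12 ± 0.21 and -0.41 ± 0.28 (SE). The last did not overlap either, at 164.6, 163.3 and 163.6 with TNBS and 185.2, 297.0 and 201.9 with the control enema. Over both diets, 0 members were free of overlap (background 0.0620% higher and 0.0929% lower). Some other probe sets of members differed more. On the standard diet, 1 of Ggps1 was lower without overlap (-0.45 ± 0.18 SE, unadjusted limma p of 0.0282). The 430B probe set of Scap was also lower there without overlap (-0.37 ± 0.21 SE). Over both diets, 430B probe sets gave -0.33 for Scap, -0.35 for Sc5d and 0.43 for Hsd17b7 (unadjusted limma p of 0.0466, 0.0163 and 0.0479). Without the 2 arrays that stood apart on 430B, both curcumin-TNBS, these were -0.41, -0.26 and 0.39. The 5 regulators were all below 0 over both diets, from -0.22 for Insig1 to -0.02 for Srebf2, but Insig1 was at -0.02 without the 2 arrays that stood apart on 430B. The 430B probe set of Sc5d had 942.4, 720.0 and 846.1 in curcumin-TNBS samples, against 1172.6, 1384.3 and 1569.6 in curcumin-control samples. These did not overlap and differed by -0.71 ± 0.18 (SE, adjusted p of 0.0732 in limma), where its 430A probe set gave 0.13 ± 0.14 (SE). Without the 2 arrays that stood apart, the 430B difference was -0.53, at an unadjusted limma p of 0.0569. A 430B probe set of Hsd17b7 had 567.1, 633.4 and 601.0 in curcumin-TNBS samples, against 327.3, 182.9 and 387.2 in curcumin-control samples, without overlap. The difference was 1.03 ± 0.28 (SE, adjusted p of 0.0802 in limma), where the gene's other 430B probe set gave -0.24 ± 0.15 (SE). Without the 2 arrays that stood apart, the 1.03 became 0.95, with 1 curcumin-TNBS array left. With array quality weights, and without curcumin-TNBS sample 1, Insig1 passed as lower with TNBS on curcumin (-0.64 and -0.53, adjusted p of 0.0196 and 0.0469 in limma), in fits that called 8.29% and 7.78% of all genes. The second of these leaves curcumin-TNBS with only the 2 arrays that stood apart on 430B. Without those 2 arrays instead, the Insig1 difference had the other sign, 0.08 ± 0.23 (SE, adjusted p of 0.993 in limma), against -0.33 ± 0.19 (SE) with all arrays. The diet and enema comparisons share samples, and none of their values are independent of one another.

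**Figure D5:**
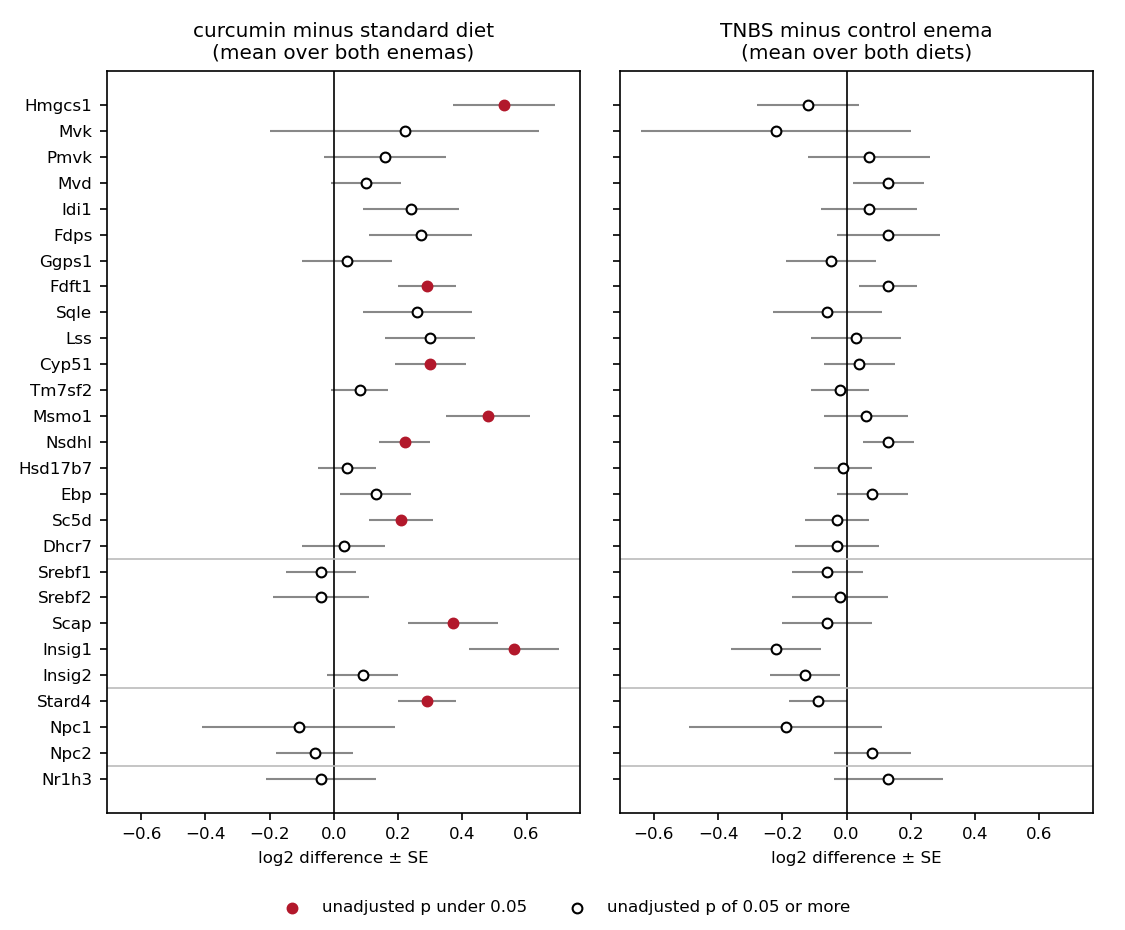
Log2 difference ± SE of 27 members from limma, for curcumin minus standard diet (left) and TNBS minus control enema (right), with red points where the unadjusted p is under 0.05. The enzymes lie right of 0 for diet, between 0.03 and 0.53, and on both sides of 0 for enema.

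Fatty acid synthesis, the branch driven mainly by SREBP-1, was set beside the sterol genes. Of 16 tested genes of this list, 15 had a diet difference above 0 (background 48.5%), with a median of 0.13. In limma 4 were higher at an unadjusted p under 0.05 (background 2.96%), and 0 passed adjustment (background 0%). Fasn, the fatty acid synthase, had 2594.6, 2427.8 and 1120.5 in curcumin-TNBS samples, against 881.9, 1430.4 and 966.3 in standard-TNBS samples, with overlap, a difference of 0.84 ± 0.27 (SE, adjusted p of 0.305 in limma). Fasn had 1598.7, 1804.3 and 1447.8 with the control enema on curcumin, and 1494.6, 1305.5 and 1385.5 on the standard diet. Scd1, the stearoyl-CoA desaturase, and Thrsp, a lipogenic regulator, differed by 1.12 ± 0.42 and 1.72 ± 0.66 (SE) under TNBS, with overlap. With the control enema the Scd1 mean was lower on curcumin, 3945.1 against 4931.7 (interaction 1.48 ± 0.59 SE, unadjusted limma p of 0.0275, adjusted p of 0.433). In the list, 5 genes were higher at an unadjusted limma p under 0.05 under TNBS (background 6.75%) and 0 with the control enema (background 1.70%). Of the 16, 8 were above 0 under both enemas (background 19.6%). Me1, the malic enzyme that supplies NADPH, and Acly, which makes cytosolic acetyl-CoA, differed by 0.49 ± 0.21 and 0.22 ± 0.10 (SE) over both enemas.

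Markers of other cell types were measured beside the members. Absorptive colonocyte markers, all 12 tested, had a median diet difference of 0.04 over both enemas. Of the 12, 10 were above 0 (background 48.5%) and 2 were higher at an unadjusted limma p under 0.05 (background 2.96%). With the control enema the median was 0.16, with 10 above 0 (background 49.9%). Under TNBS it was 0.05, with 7 above 0 (background 49.6%). The summed signal of the 11 tested on 430A ran from 75185.1 to 98803.2 on curcumin and from 75112.2 to 85437.7 on the standard diet. Adipocyte markers, 6 of 9 tested, had a median of 0.23 over both enemas, with 6 above 0 (background 48.5%). Under TNBS it was 0.59, with 3 higher at an unadjusted limma p under 0.05 (background 6.75%). With the control enema it was -0.13, with 2 above 0 (background 49.9%). Adipocyte sums ran from 5818.1 to 9838.3 on curcumin and from 3568.6 to 9047.1 on the standard diet. Neutrophil markers, 5 of 9 tested, had a median of -0.53 over both enemas. With the control enema that median was 0.19, with 4 above 0 (background 49.9%). Neutrophil sums ran from 754.7 to 1214.2 on curcumin and from 946.7 to 2613.6 on the standard diet. Pancreas acinar markers, 8 of 10 tested, had a median of -2.59; their sums ran from 2687.8 to 82082.5 on curcumin and from 3118.4 to 108697.1 on the standard diet. Over 6 arrays a diet the sums overlapped in all 4 lists. Under TNBS, however, neutrophil sums of 754.7, 905.6 and 1170.7 in curcumin-TNBS samples did not overlap with 2613.6, 1745.7 and 1973.5 in standard-TNBS samples, and all 5 tested markers were lower at an unadjusted limma p under 0.05 (background 8.74%). Macrophage sums did not overlap there either, at 9612.6, 9371.7 and 10689.6 in curcumin-TNBS samples, against 13941.6, 11979.5 and 13692.2 in standard-TNBS samples. Hepatocyte sums, over 2 markers on 430A, did not overlap under TNBS and were higher on curcumin, at 598.1 to 1204.2 in curcumin-TNBS samples, against 458.2 to 566.0 in standard-TNBS samples. The neutrophil, macrophage and hepatocyte sums all overlapped between diets with the control enema. Neutrophil sums were there 836.8 to 1214.2 on curcumin and 946.7 to 986.4 on the standard diet. Macrophage sums were 8685.9 to 10413.2 and 8327.5 to 9777.8. Macrophage markers, 9 of 10 tested, had a median of -0.13 over both enemas, with 1 above 0 (background 48.5%). Goblet cell markers, 7 of 7 tested, had a median of -0.08 with 0 above 0 (background 48.5%). The sums of the 6 tested on 430A were 64223.3 to 78142.9 on curcumin and 69714.3 to 83709.6 on the standard diet. The part of these cells in the enzyme differences was not tested.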

How the data were processed

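The deposited values are signal intensities that the authors made with Affymetrix GCOS, per the submitters' processing notes, whose release was not given in the sources used here. There is no sequencing depth, and the number of arrays sets the precision. Signals of 24 arrays (12 of each type) were used as deposited. Of 22626 probe sets on 430A and 22511 on 430B, 20380 and 14661 have 1 gene symbol in GEO's platform annotation, which can be old. Signals were raised by 16 and log2-transformed, and probe sets with a mean above the 40th percentile were kept, 27081 in all. Each array type was fitted over its 12 arrays with limma 3.58.1 in R 4.3.3 (lmFit, eBayes with trend, 8 residual degrees of freedom, two-sided, Benjamini-Hochberg within an array type), after the fit was tested on simulated data. A gene is represented by its tested probe set of highest mean, from 430A first. Array sets are the signs of the first principal component on 430A; outlying 430B arrays lie over 5 median absolute deviations from the median. All members are named; values per sample are given for those with an unadjusted p under 0.05 or without overlap, and up to 3 genes with the smallest p for the other lists. The members and lists were chosen with earlier results of these data known. The alternatives tried are given in the closing section.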

Additional observations from a re-analysis of the deposited data

How the results depend on the processing

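No paired analysis was possible because the labels give samples no number shared across groups. Settings tried were pseudocounts of 1 and 64, no filter or the 60th percentile, quantile normalization, median centring, array set as a term with 430B lacking the 2 outlying arrays, array quality weights, averaging each gene's probe sets, each of 12 samples left out in turn, and, chosen after seeing the data, 430B alone without those 2 arrays. Enzymes above 0 over both enemas numbered 17 or 18 of 18 in the settings other than a left-out sample, except 16 of 16 tested at the 60th percentile, and 15 to 18 with a sample left out. Their median ran from 0.18 to 0.25 with a sample left out, and the median of all members from 0.16 to 0.24. Single-enema medians with a sample left out ran from 0.12 to 0.26 (control enema) and from 0.15 to 0.29 (TNBS) for enzymes, and from 0.14 to 0.25 (TNBS) for members. Array quality weights called 5 members for diet under TNBS, 1 over both enemas and 1 for TNBS on curcumin, against 15.9%, 1.71% and 8.29% of all genes; leaving out a sample called 0 to 1 in each of the last 2, Insig1 each time, without curcumin-TNBS sample 1, against 1.89% and 7.78% of all genes. For diet with the control enema, the median of all members was 0.22 at the 60th percentile, 0.20 with median centring and 0.10 with probe-set means. For TNBS on the standard diet it was -0.05 with the array set, and -0.04 to 0.03 with a sample left out; on curcumin it was -0.05 to 0.03 and over both diets -0.04 to 0.03. For the interaction, the enzyme median was 0.06 (array set), -0.14 (weights), 0.02 (probe-set means) and -0.08 to 0.04 with a sample left out. That of all members was 0.05, -0.08, 0.07 and -0.08 to 0.03 in the same settings. Enzymes above 0 numbered 6 to 11 with a sample left out and 5 to 10 in the other settings. Members with a diet difference near 0 changed sign over both enemas: Dhcr7 to -0.01 and Nr1h3 and Srebf2 to 0.01 with weights, Nr1h3 to 0.01 with quantile normalization, and Hsd17b7 to 0.00 and Srebf2 to 0.02 with probe-set means. With a sample left out, Dhcr7 ran from -0.06 to 0.12, Ggps1 from -0.04 to 0.13, Hsd17b7 from -0.01 to 0.08, Mvk from -0.04 to 0.51, Npc1 from -0.30 to 0.06, Npc2 from -0.15 to 0.02, Nr1h3 from -0.15 to 0.07, Srebf1 from -0.09 to 0.02 and Srebf2 from -0.12 to 0.08. Values of the same sign moved by over 1.5 times for Sqle (0.17 to 0.43), Idi1 (0.17 to 0.37), Fdps (0.17 to 0.38), Pmvk (0.04 to 0.24), Ebp (0.05 to 0.18), Mvd (0.05 to 0.15), Tm7sf2 (0.04 to 0.11) and Insig2 (0.03 to 0.17). The cause was not tested.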

Other observations

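The other lists of sterol genes showed no common direction with diet. Of 9 tested LXR targets and sterol exporters, 5 were above 0 for curcumin minus standard diet over both enemas (background 48.5%). Their median was 0.00. Abca1, the cholesterol exporter, had 724.9, 755.3 and 814.0 in curcumin-TNBS samples, against 1036.3, 854.3 and 990.3 in standard-TNBS samples. These did not overlap (background 10.3% lower) and differed by -0.32 ± 0.14 (SE, adjusted p of 0.462 in limma). Abcg5, a sterol half-transporter, had 75.4, 122.9 and 180.8 in curcumin-TNBS samples, against 190.1, 300.9 and 206.4 in curcumin-control samples. These did not overlap (background 6.41% lower) and differed by -0.85 ± 0.36 (SE, adjusted p of 1 in limma). Of 18 tested genes of sterol uptake, trafficking, SREBP processing and oxysterols, 11 were above 0 (background 48.5%) with a median of 0.02. Under TNBS, 2 of them were lower and 1 was higher at an unadjusted limma p under 0.05 (background 8.74% and 6.75%). Rnf139, an endoplasmic reticulum ubiquitin ligase, had 3186.7, 2370.6 and 1566.9 in curcumin-TNBS samples, against 3108.5, 3895.3 and 4135.9 in standard-TNBS samples, with overlap, a difference of -0.69 ± 0.21 (SE, adjusted p of 0.086 in limma). Lrp8, a lipoprotein receptor, had 416.6, 56.7 and 148.3 in curcumin-TNBS samples, against 602.4, 437.5 and 365.8 in standard-TNBS samples, with overlap, a difference of -1.46 ± 0.52 (SE, adjusted p of 0.12 in limma). Both are on 430B, and without the 2 arrays that stood apart there the differences were -0.21 and -0.13. Erlin1 is an endoplasmic reticulum protein that takes part in sterol-regulated degradation. It had 1499.0, 1419.8 and 1259.5 in curcumin-TNBS samples, against 766.2, 1208.2 and 1088.3 in standard-TNBS samples. These did not overlap (background 9.46% higher) and differed by 0.46 ± 0.16 (SE, adjusted p of 0.342 in limma).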
